A study of Mus musculus with 17 samples.

Results

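The intermediate filament genes *Gfap*, *Vim*, *Nes* and *Synm* and the genes of the gp130–STAT3 pathway *Cntfr*, *Lifr*, *Il6st*, *Osmr*, *Stat3* and *Socs3* were followed through 17 bulk RNA-seq libraries of cultured mouse astrocytes. They are 10 of the 56691 gene rows of the count table and were taken by symbol. They were selected from earlier results on the same libraries, and since it is not recorded which values weighed in that choice, all their levels and fold-changes are given as a description and not as independent evidence. Astrocytes of C57BL/6 mice were purified from brains of postnatal day 2 pups, without meninges, olfactory bulbs or cerebellum, by immunopanning, in which antibody-coated dishes removed CD45-positive microglia and macrophages and O4-positive oligodendrocyte precursors and then held HepaCAM-positive astrocytes. All cultures grew in serum-free medium with heparin-binding EGF-like growth factor. In the first experiment, 3 cultures received SAG, an agonist of the SHH signal transducer Smoothened, at 500 ng/ml for 3 d from day 3 in vitro, and 3 received its solvent DMSO. In the second, 4 cultures received FGF2 and 3 received FGF10, each at 50 ng/ml for 7 d from day 2 in vitro, and 4 received PBS. The comparisons ask how SHH and FGF signals act on astrocyte gene programs. The labels do not tie replicate numbers to litters or days.

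The intermediate filaments of astrocytes are built from glial fibrillary acidic protein and vimentin, with nestin and synemin as partners that need another filament protein to assemble. Cytokines of the interleukin-6 family bind receptors that share gp130, the product of *Il6st*. CNTF is bound by its own receptor subunit, encoded by *Cntfr*, together with LIFR and gp130, and oncostatin M by OSMR and gp130. The kinases attached to these receptors phosphorylate STAT3, which moves to the nucleus as a dimer, switches on genes such as *Gfap* during astrocyte differentiation and gliosis, and induces its own inhibitor SOCS3.

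STAT dimers are known to bind the palindrome TTCNNNGAA, which reads the same on both strands, so the promoters of the 10 genes were searched for it. RefSeq promoter windows on GRCm38.p6, from 250 bases before to 50 bases after a transcript start, were found for all 10 genes (16 windows). The letters occurred in 2 of the 16 windows, against 8.3% of all 32851 windows, and in 2 of the 10 genes, against 9.55% of 27025 genes. The windows that hold it, from the gene that separated SAG from DMSO cultures and from the feedback inhibitor, are printed 5′ to 3′ on the minus strand with the palindrome in capitals.
Gfap promoter, chr11:102897151-102897450: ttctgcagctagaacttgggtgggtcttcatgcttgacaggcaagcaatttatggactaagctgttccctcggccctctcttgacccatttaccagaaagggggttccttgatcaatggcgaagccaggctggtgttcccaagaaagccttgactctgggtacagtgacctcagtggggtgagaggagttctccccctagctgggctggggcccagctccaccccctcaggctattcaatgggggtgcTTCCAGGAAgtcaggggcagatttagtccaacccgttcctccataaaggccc
Socs3 promoter, chr11:117969317-117969616: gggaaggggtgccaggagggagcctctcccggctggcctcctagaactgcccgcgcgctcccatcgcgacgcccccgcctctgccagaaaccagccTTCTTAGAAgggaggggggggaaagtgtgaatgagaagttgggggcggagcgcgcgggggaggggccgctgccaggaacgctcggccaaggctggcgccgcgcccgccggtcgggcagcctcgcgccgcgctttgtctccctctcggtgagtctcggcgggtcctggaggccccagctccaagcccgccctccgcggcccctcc
The palindrome begins at position -2 from the transcript start in the *Gfap* window and at position -154 in the *Socs3* window. The *Gfap* window lies at the start of one annotated transcript and not at the most upstream end of the gene. A match describes the letters only and says nothing of binding in these cultures.

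Levels are given in CPM, a gene's reads scaled to a common library total, normalized by the trimmed mean of M-values (TMM) over the 17 libraries, and differences are log2(fold-changes) with standard errors (SE) from edgeR, fitted in the libraries of each comparison over all genes. The libraries count reads near the 3′ ends of transcripts. Levels are compared between libraries, and across genes only the sums of marker lists are set side by side. The libraries held between 17481727 and 68342287 counts. With SAG, 8 of 12538 genes (0.0638%) passed a Benjamini–Hochberg adjusted p of 0.05 in edgeR's quasi-likelihood test. Astrocyte markers were abundant in every library, with the summed level of 10 astrocyte markers between 4435 and 6414 CPM and that of 8 microglia and macrophage markers at no more than 5.78 CPM. In bulk samples, fewer cells of a type and less RNA per cell cannot be told apart.

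*Gfap* (GRCm38 chr11:102887336-102900912, minus strand), the main filament gene of mature and reactive astrocytes, was lower in all 3 SAG cultures than in any DMSO culture. DMSO replicates 1, 2 and 3 had 139, 198 and 183 CPM and SAG replicates 1, 2 and 3 had 60.1, 36.0 and 25.1 CPM. The means were 174 ± 31.0 CPM (SD, n = 3) and 40.4 ± 17.9 CPM (SD, n = 3), a log2(fold-change) of -2.08 (SE 0.35), or 4.24-fold lower. *Gfap* was the only one of the 10 genes whose SAG and DMSO groups did not overlap, and 14.2% of all genes tested were separated in this way. In edgeR's quasi-likelihood test it ranked at 11 of 12538 genes and had an adjusted p of 0.0854, so 0 of the 10 genes passed. That p depended on the setting while the difference did not. It was 5.57e-07 with no filter on low counts, 0.0354 with the replicate number as a block, 0.595 with all 17 libraries in one edgeR fit and 1.28e-07 in DESeq2's Wald test, with log2(fold-changes) between -2.16 and -2.07. Without SAG replicate 1, which had the highest *Gfap* of its group, the log2(fold-change) was -2.48 and edgeR's adjusted p was 0.0275. With any other of the 6 libraries left out, edgeR's adjusted p lay between 0.227 and 0.365.

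**Figure D1:**
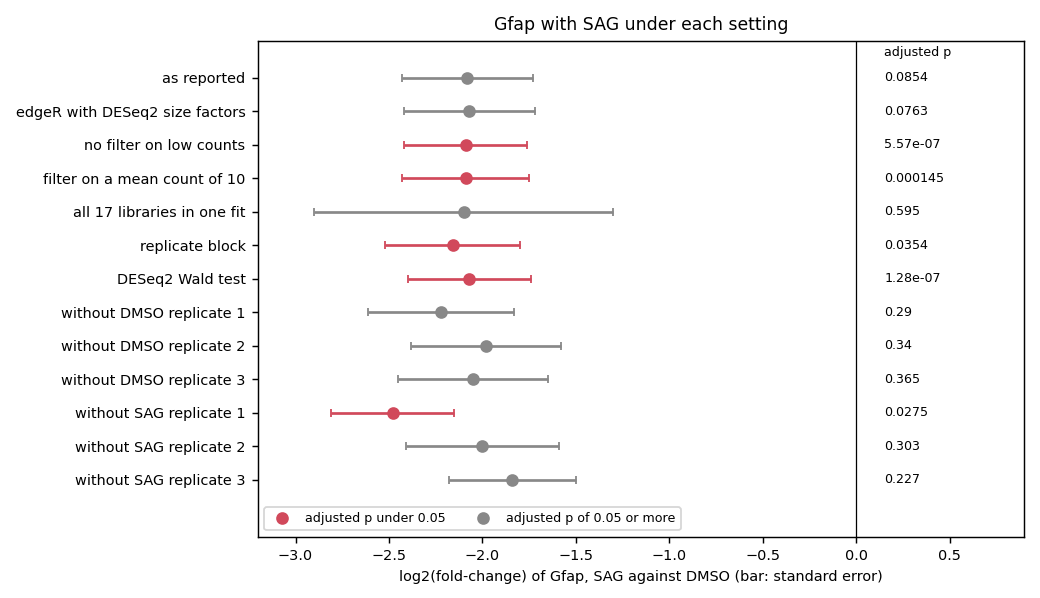
Log2(fold-change) of *Gfap* in SAG against DMSO cultures (x axis; points, with bars for the standard error) under each setting of the analysis (y axis), with the adjusted p printed beside each point. The points lie between -2.48 and -1.84, whereas the adjusted p runs from 1.28e-07 to 0.595, and red marks those under 0.05.

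*Vim* (chr2:13573927-13582826, plus strand) encodes vimentin, the filament protein of immature astrocytes. Its level was 1146, 1092 and 1211 CPM in DMSO replicates 1, 2 and 3 and 1034, 1143 and 1074 CPM in SAG replicates 1, 2 and 3. The groups overlapped and the log2(fold-change) was -0.06 (SE 0.14). *Nes* (chr3:87971078-87980451, plus strand), the nestin gene of neural progenitors and dividing astrocytes, was at 139, 138 and 180 CPM in DMSO and at 158, 206 and 75.8 CPM in SAG, with the SAG cultures on both sides of the DMSO range and a log2(fold-change) of -0.03 (SE 0.33). *Synm* (chr7:67730160-67759742, minus strand), which encodes synemin, was at 17.6, 6.64 and 7.55 CPM in DMSO and at 18.4, 5.61 and 11.7 CPM in SAG. Its log2(fold-change) of 0.19 had an SE of 1.28, a spread too wide to show a direction.

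Among the receptors, *Il6st* (chr13:112464070-112510086, plus strand), the shared gp130 subunit, had 59.8, 59.6 and 66.8 CPM in DMSO and 64.6, 65.2 and 83.2 CPM in SAG. Highest was SAG replicate 3, but DMSO replicate 3 lay above the other SAG cultures, and the log2(fold-change) was 0.22 (SE 0.31). *Cntfr* (chr4:41657498-41697089, minus strand), the CNTF-binding subunit, varied from 0.779 to 14.7 CPM within DMSO alone and from 0.255 to 10.6 CPM within SAG. *Lifr* (chr15:7090614-7197489, plus strand), the LIF receptor, had 20.7, 16.8 and 11.5 CPM in DMSO and 21.3, 21.6 and 5.74 CPM in SAG, a log2(fold-change) of 0.01 (SE 0.97). *Osmr* (chr15:6813577-6874969, minus strand), the oncostatin M receptor, was at 3.16, 12.8 and 12.6 CPM in DMSO, at 4.04 CPM in SAG replicate 1 and at 0 in SAG replicates 2 and 3. The groups overlapped and the log2(fold-change) of -2.81 had an SE of 2.81. At levels of 5 to 10 CPM, between 7.58% and 33.8% of genes were at 0 in a given library. The median of *Osmr* over the 17 libraries, 3.16 CPM, lay below that band, and the share at its own level was not computed. A 0 for *Osmr* is therefore not taken to show that the gene was off.

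*Stat3* (chr11:100885098-100939540, minus strand), the transcription factor of the pathway, had 302, 293 and 319 CPM in DMSO and 316, 422 and 404 CPM in SAG. SAG replicates 2 and 3 lay above every DMSO culture and SAG replicate 1 lay within their range, with a log2(fold-change) of 0.35 (SE 0.19). *Socs3* (chr11:117966079-117970047, minus strand), the feedback inhibitor, had 36.9, 11.7 and 29.7 CPM in DMSO and 81.6, 29.8 and 41.0 CPM in SAG. Its log2(fold-change) was 0.98 (SE 0.59), the largest positive value of the 10 genes, and SAG replicate 2 lay within the DMSO range. Apart from *Gfap*, the 9 genes had an edgeR adjusted p of 1.00 with SAG. The median log2(fold-change) of the 10 genes was 0.10, against -0.02 over all genes tested.

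**Figure D2:**
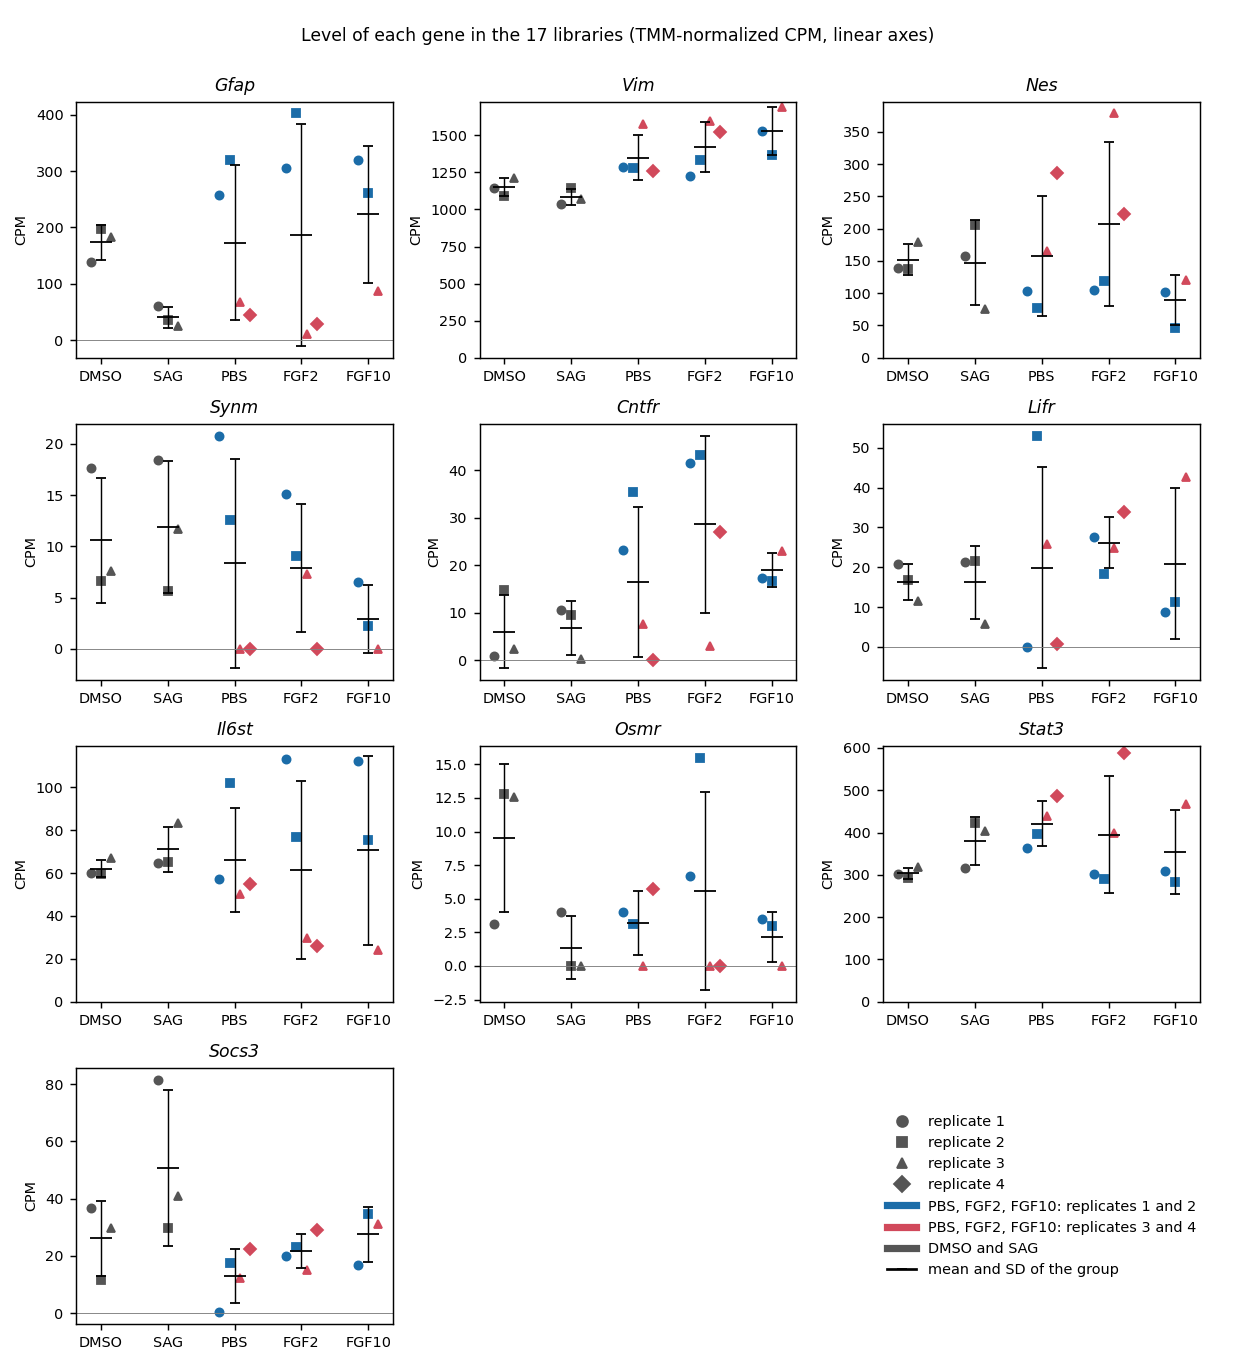
Level of each of the 10 genes in CPM (y axes, linear) in every library by group (x axes). Points are libraries, with shapes for the replicate number and colours for the sets of replicates in PBS, FGF2 and FGF10 cultures, and bars are the group mean and SD. *Gfap* lies at 25.1 to 60.1 CPM with SAG and at 139 to 198 CPM with DMSO, and in the other groups it splits by replicate number.

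Summed levels of markers of several cell types also differed between SAG and DMSO, though edgeR called none of the marker genes. Of all genes tested, 14.2% did not overlap between these groups. The summed level of the 10 astrocyte markers was 4865 to 5428 CPM with SAG and 5555 to 5933 CPM with DMSO. Without overlap, *Gja1*, *Sox9* and *Glul* were lower and *Aldh1l1* was higher in SAG. Of the 10, 5 had a log2(fold-change) above 0 and 5 below. The 4 ependymal markers summed to 85.5 to 148 CPM with SAG and 206 to 275 CPM with DMSO, and the 3 that could be tested were all lower without overlap. Oligodendrocyte lineage markers (7 genes) summed to 138 to 169 CPM against 194 to 312 CPM. Of the 5 that could be tested, 4 had a log2(fold-change) below 0, but only *Sox10* was lower without overlap. *Cspg4* went the other way, with a log2(fold-change) of 1.35 (SE 2.20). Endothelial and mural markers (7 genes, of which *Pecam1*, *Cldn5*, *Cdh5* and *Kcnj8* were at 0 in all 6 libraries) summed to 0 to 13.7 CPM against 22.4 to 23.9 CPM. Among these 7 only the mural gene *Pdgfrb* could be tested. Its SAG mean was 2.15 CPM (SD 3.72), and its DMSO mean of 21.7 CPM (SD 2.34) made up most of the DMSO sum. Neuron markers (6 genes) overlapped, at 24.1 to 75.3 CPM against 41.3 to 179 CPM, as did the 4 cell cycle genes, at 179 to 342 CPM against 128 to 213 CPM. The 5 fibroblast markers were at no more than 8.81 CPM. The part of these differences in the lower *Gfap* was not tested.

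The remaining filament and pathway genes were described from 7 lists of 68 genes, of which 43 could be tested with SAG. None was called in either direction by edgeR, and 4 of the 43 (9.3%) did not overlap between groups, against 14.2% of all genes. *Ina*, a filament gene of neurons, was lower with SAG, at 18.2 ± 8.49 CPM against 51.1 ± 23.1 CPM (SD, n = 3 each; log2(fold-change) -1.47, SE 0.62). *Socs4*, a further gene of the SOCS family, was higher, at 49.5 ± 14.0 CPM against 19.3 ± 3.43 CPM (log2(fold-change) 1.39, SE 0.53). *Ptpn1*, a tyrosine phosphatase that acts on JAK kinases, was at 195 ± 23.2 CPM against 153 ± 18.4 CPM. *Cebpb*, a transcription factor gene induced by the pathway, was at 1.46 ± 2.51 CPM against 8.60 ± 2.43 CPM, with a log2(fold-change) of -2.53 and an SE of 2.65.

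In the second experiment no treatment separated any of the 10 genes from its control, and cultures of one group differed widely. PBS replicates 1 to 4 had 257, 320, 67.7 and 45.1 CPM of *Gfap*. FGF2 replicates 1 to 4 had 306, 402, 10.8 and 28.8 CPM, and FGF10 replicates 1 to 3 had 320, 261 and 87.8 CPM. All 3 groups thus held high and low cultures, with means of 173 ± 137 CPM (SD, n = 4), 187 ± 197 CPM (SD, n = 4) and 223 ± 121 CPM (SD, n = 3). The log2(fold-change) of *Gfap* was 0.13 (SE 0.88) for FGF2 against PBS, 0.38 (SE 0.58) for FGF10 against PBS and -0.25 (SE 0.89) for FGF2 against FGF10.

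None of the 10 genes was called in any of the 3 comparisons by edgeR, where 0 of 12744 genes (0%) passed for FGF2 against PBS, 0 of 13309 (0%) for FGF10 against PBS and 0 of 13493 (0%) for FGF2 against FGF10. At an unadjusted p under 0.05 there were 223, 305 and 324 genes, and DESeq2's Wald test called 120, 102 and 91. The groups overlapped for all 10 genes in each comparison, whereas 2.45%, 4.79% and 4.9% of all genes tested were separated. All 10 genes passed the filter on low counts in the 4 comparisons. The 2 FGF comparisons with PBS share the PBS cultures.

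*Vim* varied least among the 10 genes, with a coefficient of variation of 15.3% over the 17 libraries. It was at 1284, 1283, 1576 and 1258 CPM in PBS, at 1229, 1337, 1595 and 1523 CPM in FGF2 and at 1531, 1367 and 1694 CPM in FGF10. These groups overlapped, with log2(fold-changes) of 0.08 (SE 0.18) for FGF2 and 0.19 (SE 0.18) for FGF10 against PBS. All 11 libraries of the FGF experiment, however, lay above all 6 libraries of the SAG experiment, which ran from 1034 to 1211 CPM. *Vim* was the only one of the 10 genes separated in this way, as were 15 of 14294 genes (0.105%), and solvent, days in vitro and treatment time cannot be told apart in this contrast. In the order of group means (FGF10, FGF2, PBS, DMSO, SAG) only the neighbours PBS and DMSO did not overlap for *Vim*, and for the other 9 genes every pair of neighbouring groups overlapped.

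The group mean of *Nes* was highest with FGF2 and lowest with FGF10. It had 103, 77.4, 165 and 286 CPM in PBS, 105, 119, 380 and 222 CPM in FGF2 and 102, 45.9 and 121 CPM in FGF10. The log2(fold-change) was 1.21 (SE 0.46) for FGF2 against FGF10, with an edgeR adjusted p of 1.00, and -0.81 (SE 0.44) for FGF10 against PBS. With FGF2 replicates 3 and 4 left out together with FGF10 replicate 3, the difference between FGF2 and FGF10 was 0.61. In the PBS cultures *Synm* had 20.8, 12.6, 0 and 0 CPM. FGF2 cultures had 15.1, 9.10, 7.28 and 0 CPM and FGF10 cultures 6.54, 2.20 and 0 CPM, so each group held at least 1 culture without a *Synm* count.

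*Il6st* was at 57.2, 102, 50.2 and 54.9 CPM in PBS, at 113, 76.8, 29.5 and 26.1 CPM in FGF2 and at 112, 75.6 and 24.1 CPM in FGF10, with log2(fold-changes) against PBS of -0.10 (SE 0.45) for FGF2 and 0.10 (SE 0.45) for FGF10. Within replicates 3 and 4 alone, both FGF2 cultures were below both PBS cultures (log2(fold-change) -0.91), and within replicates 1 and 2 the value was 0.26. Each of these fits held 2 FGF2 and 2 PBS cultures, and edgeR called *Il6st* in neither. *Cntfr* ran from 0.0316 CPM, a single read in PBS replicate 4, to 43.2 CPM in FGF2 replicate 2. PBS cultures had 23.1, 35.4, 7.55 and 0.0316 CPM, FGF2 cultures 41.6, 43.2, 2.87 and 27.0 CPM and FGF10 cultures 17.2, 16.6 and 23.0 CPM. The FGF10 cultures were the most even, and the log2(fold-change) against PBS was 0.81 (SE 1.15) for FGF2 and 0.21 (SE 1.20) for FGF10.

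*Lifr* had 0, 53.1, 25.9 and 0.633 CPM in PBS, 27.6, 18.2, 24.9 and 33.9 CPM in FGF2 and 8.71, 11.4 and 42.7 CPM in FGF10. Its PBS cultures alone spanned the range of all 17 libraries. *Osmr* was low throughout, at no more than 15.5 CPM, and was at 0 in PBS replicate 3, FGF2 replicates 3 and 4 and FGF10 replicate 3. *Stat3* was at 363, 396, 440 and 487 CPM in PBS, at 301, 291, 399 and 588 CPM in FGF2 and at 308, 284 and 467 CPM in FGF10, with log2(fold-changes) against PBS of -0.08 (SE 0.24) and -0.25 (SE 0.23). *Socs3* was at 0.348 CPM in PBS replicate 1 and at 17.5, 12.2 and 22.5 CPM in the other PBS cultures. FGF2 cultures had 19.8, 23.0, 15 and 28.9 CPM of *Socs3* and FGF10 cultures 16.8, 34.6 and 31.2 CPM. Its log2(fold-change) against PBS was 0.73 (SE 0.90) for FGF2 and 1.07 (SE 0.96) for FGF10, and the groups overlapped.

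**Figure D3:**
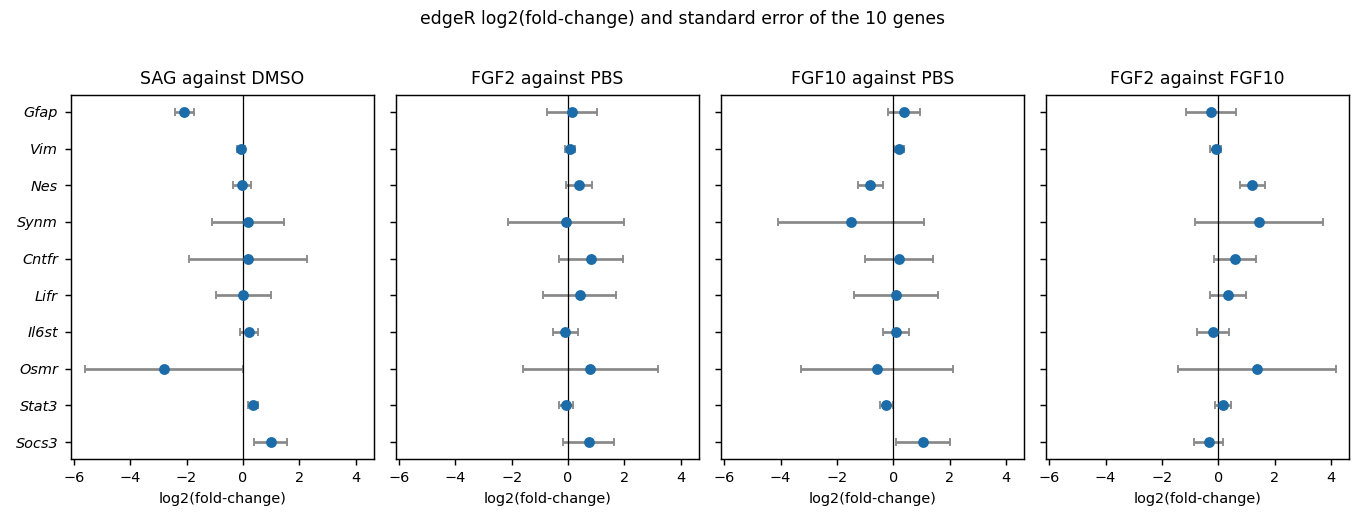
Log2(fold-change) of the 10 genes (x axes) in the 4 comparisons (panels), with points for the edgeR estimate and bars for its standard error. *Gfap* in SAG against DMSO, at -2.08 (SE 0.35), stands farthest from 0 relative to its standard error, and the widest bar of each panel belongs to *Osmr*.

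None of the other filament and pathway genes was called in the FGF comparisons. Of the genes that could be tested, 0 of 46 were separated for FGF2 against PBS, where 2.45% of all genes were, 4 of 47 (8.51%, against 4.79% of all genes) for FGF10 against PBS and 2 of 47 (4.26%, against 4.9%) for FGF2 against FGF10. *Ctf1*, which encodes the gp130 ligand cardiotrophin 1, was at 14.8 ± 4.74 CPM (SD, n = 3) in FGF10, 1.25 ± 1.20 CPM (SD, n = 4) in PBS and 2.48 ± 3.51 CPM (SD, n = 4) in FGF2. The FGF10 cultures lay above all others, with log2(fold-changes) of 3.57 (SE 1.83) against PBS and -2.56 (SE 1.91) for FGF2 against FGF10. *Jak1*, a kinase bound to gp130, was at 117 ± 11.9 CPM in FGF10 and 81.4 ± 4.29 CPM in PBS (log2(fold-change) 0.53, SE 0.24). *Stat2*, an interferon-pathway STAT, was at 7.71 ± 6.91 CPM against 24.6 ± 2.75 CPM, and *Socs6* at 25.1 ± 3.95 CPM against 15.4 ± 4 CPM. *Mcl1*, an anti-apoptotic gene induced by STAT3, was lower in FGF2 than in FGF10, at 49.8 ± 9.11 CPM against 76.4 ± 15.9 CPM (log2(fold-change) -0.61, SE 0.30).

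The high and low cultures of the FGF experiment followed the replicate number. Replicates 1 and 2 (6 libraries) and replicates 3 and 4 (5 libraries) of PBS, FGF2 and FGF10 were set side by side because earlier results on these data had shown those sets apart, and no label names them as batches. For 4 of the 10 genes the sets did not overlap, as for 5.17% of 13533 genes, and this separation is a description without a test. *Gfap* ran from 257 to 402 CPM in replicates 1 and 2 and from 10.8 to 87.8 CPM in replicates 3 and 4, a 6.48-fold ratio of means, and *Il6st* from 57.2 to 113 CPM and from 24.1 to 54.9 CPM, a 2.42-fold ratio. *Nes* went the other way, from 45.9 to 119 CPM in replicates 1 and 2 and from 121 to 380 CPM in replicates 3 and 4 (2.55-fold), as did *Stat3*, from 284 to 396 CPM and from 399 to 588 CPM (1.47-fold). The gaps at the boundary were narrow for *Il6st* (57.2 and 54.9 CPM), *Nes* (119 and 121 CPM) and *Stat3* (396 and 399 CPM). The other 6 genes overlapped between the sets, *Vim* with means of 1338 and 1529 CPM and *Socs3* with means of 18.7 and 22.0 CPM.

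**Figure D4:**
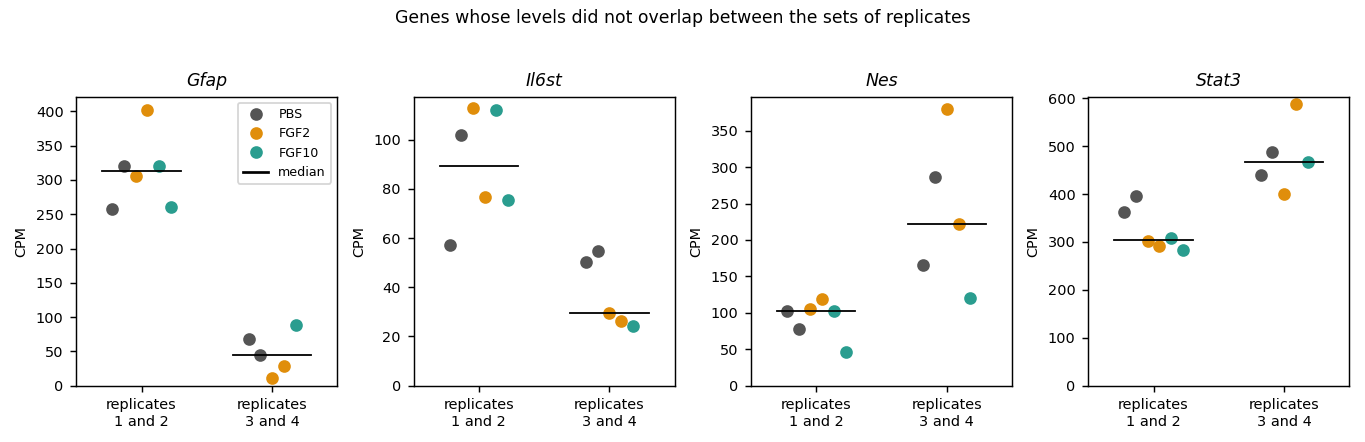
Level in CPM (y axes, from 0) of *Gfap*, *Il6st*, *Nes* and *Stat3* in replicates 1 and 2 and in replicates 3 and 4 (x axes) of the PBS, FGF2 and FGF10 cultures. Points are libraries coloured by treatment and lines are medians. *Gfap* and *Il6st* are higher in replicates 1 and 2, with *Gfap* at 257 CPM or more, and *Nes* and *Stat3* are higher in replicates 3 and 4.

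The difference between PBS and FGF2 in *Gfap* had opposite signs in the sets. FGF2 cultures had a log2(fold-change) of 0.31 against PBS within replicates 1 and 2 and of -1.50 within replicates 3 and 4. Each value rests on 2 FGF2 and 2 PBS cultures. The term for that difference was added after these values were seen and is no independent test of them. It was -1.81 (SE 0.56) and did not pass edgeR's quasi-likelihood test over 12744 genes (adjusted p 0.997). In that test 2 genes passed, and 604 genes, *Gfap* among them, had an unadjusted p under 0.05. For FGF10 against PBS the log2(fold-change) of *Gfap* within replicates 1 and 2 was 0.01, and replicates 3 and 4 hold 1 FGF10 library.

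Cell cycle genes, astrocyte markers and markers of other cell types differed between the sets as well. The 4 cell cycle genes summed to 96.5 to 271 CPM in replicates 1 and 2 and to 842 to 1251 CPM in replicates 3 and 4. The 10 astrocyte markers summed to 5778 to 6414 CPM and 4435 to 4785 CPM, with *Gja1*, *Sox9*, *Aldoc* and *Glul* higher and *Aldh1l1* lower in replicates 1 and 2. Ependymal markers (4 genes) ran from 345 to 567 CPM and from 83.0 to 213 CPM, neuron markers (6 genes) from 93.1 to 153 CPM and from 25.6 to 57.5 CPM, and oligodendrocyte lineage markers (7 genes) from 361 to 562 CPM and from 123 to 337 CPM. Endothelial and mural markers (7 genes, with *Cldn5*, *Cdh5* and *Kcnj8* at 0) ran from 14.4 to 64.9 CPM and from 0 to 9.40 CPM. Of these 7 only the mural gene *Pdgfrb* had enough counts to be tested, at 14.4 to 64.8 CPM and 0 to 5.7 CPM. Fibroblast markers (5 genes) overlapped at no more than 19.5 CPM. The part of these differences in the levels of *Gfap*, *Il6st*, *Nes* and *Stat3* was not tested. Of the other filament and pathway genes, *Lmnb1*, a nuclear lamin, was higher in replicates 3 and 4, at 438 to 714 CPM against 223 to 343 CPM. *Ina*, the cytolinkers *Plec* and *Dst*, the ligand gene *Clcf1* and the STAT3 response genes *Pim1* and *Serpina3n* were higher in replicates 1 and 2. *Serpina3n*, a gene of reactive astrocytes, was at 12.2 to 66.6 CPM against 0 to 7.77 CPM. Among genes with enough counts, 2 of 12 STAT3 response genes, 2 of 3 cytolinkers and 1 of 3 ligand genes were separated. So were 0 of 8 JAK and STAT genes and 0 of 14 inhibitors, against 5.17% of all genes.

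Likeness in rank across the 17 libraries was taken over 6716 genes with a mean of at least 20 CPM. The genes whose levels ranked most like those of *Gfap* were *Clu*, *Gdpd2* and *Gabrb1*, with Spearman rho of 0.95, 0.94 and 0.93. *Clu*, which encodes the secreted chaperone clusterin, ran from 78.8 to 851 CPM. For *Vim* they were *Lmnb1*, *Hdgf* and *Lsm4* (rho 0.88, 0.88 and 0.84), and for *Nes* they were *Shmt2*, *Rpl27a* and *Pfdn1* (rho 0.91, 0.86 and 0.83). *Stat3* ranked most like *Scarb1*, *Ppic* and *Zeb1* (rho 0.88, 0.85 and 0.85) and *Socs3* most like *Sde2*, *Atxn1l* and *Mgat3* (rho 0.81, 0.76 and 0.75). Among the 10 genes, *Gfap* had a rho of -0.69 with *Stat3*, -0.63 with *Nes*, 0.64 with *Cntfr*, 0.60 with *Osmr* and 0.59 with *Il6st*. Its rho was 0.30 with *Synm*, 0.09 with *Vim*, -0.05 with *Lifr* and -0.28 with *Socs3*. *Stat3* and *Socs3* had a rho of -0.01. These correlations describe 17 libraries that share experiments and sets of replicates, and they carry no test.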

How the data were processed

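Bulk RNA-seq was measured in 17 libraries (DMSO 3, SAG 3, PBS 4, FGF2 4, FGF10 3), grouped by their labels. The methods give 3 FGF2 replicates, the labels list 4, and all 4 were used. The authors prepared QuantSeq 3′ libraries, removed BC1 transcripts, aligned reads with STAR (GRCm38 in the processing notes) and counted them per gene. They tested the counts with DESeq2's Wald test. The strand setting and any use of molecular identifiers are not given in the sources used here. The authors deposited raw counts, 1 whole number per gene and library. Genes overlap *Gfap* (Gm26668), *Synm* (*Ttc23*, Gm45102) and *Stat3* (*Stat5a*) on the opposite strand, so their reads could have been assigned to one another. Of 56805 rows, 114 spike-in rows (at most 86 counts in a library) were left out. Columns headed Shh were matched to the SAG samples.

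The counts were tested with edgeR 4.0.16 (with limma 3.58.1), and in alternatives with DESeq2 1.42.0, under R 4.3.3. Each of 4 comparisons used the libraries of its own groups, filterByExpr (minimum count 10, minimum total 15), TMM, edgeR's two-sided quasi-likelihood test without covariates and Benjamini–Hochberg adjustment over all genes. A gene was called at an adjusted p under 0.05. Rank correlations and ranges were computed in Python 3.11.15 with pandas 2.3.3. The procedure was tested on simulated counts that spread less between libraries than these do, so that test does not show its power here. Total counts had a median of 37173676, and the spread between cultures limits the precision, with replicate pairs differing by a chi-square per degree of freedom of 149 to 524. The methods call the replicates biological but the labels do not say whether they came from separate animals, so p-values measure the spread between these libraries.

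The 10 genes and the lists were chosen with earlier results of these data known. Genes named beyond the 10 were those of each list that did not overlap between groups, at most 4 per list and comparison, with a mean of at least 5 CPM, and the 3 highest in rank correlation with *Gfap*, *Vim*, *Nes*, *Stat3* and *Socs3*. Genes separating the sets of replicates were named after their values were seen. The alternatives were DESeq2 size factors, other filters, all libraries in one fit, a replicate block, DESeq2, a stricter threshold, single libraries left out and fits within sets of replicates. Gene positions are from GENCODE on GRCm38 and promoters from RefSeq on GRCm38.p6. Protein sequences were not used here.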

Additional observations from a re-analysis of the deposited data

Results flagged for a closer look

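In 20 groups of 4 cultures (the 10 genes in PBS and in FGF2), a single culture stood apart from the rest of its group in 2, and chance does so in about 1 of 20 groups. *Vim* in PBS replicate 3 was at 1576 CPM, where the other PBS cultures lay between 1258 and 1284 CPM, and its gap to the nearest culture was 0.92 of the range of the group. *Il6st* in PBS replicate 2 was at 102 CPM, where the others lay between 50.2 and 57.2 CPM, with a gap of 0.865 of the range. Neither gene was called in any of the 4 comparisons.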

How the results depend on the processing

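With SAG, the count of genes called was 8, and it was 7 with DESeq2 size factors, 76 with no filter and 42 with a filter on a mean count of 10. It was 4 with all 17 libraries in one fit, 394 in DESeq2's Wald test and from 1 (without DMSO replicate 1) to 7 with 1 library left out. In edgeR it was 4 at an adjusted p of 0.01 and a log2(fold-change) beyond 1, a threshold the study applied in DESeq2. The count of the 10 genes called was 0, and it was 1, *Gfap*, with no filter, with the mean filter, with the replicate block, in DESeq2 and without SAG replicate 1, so it ran from 0 to 1 with 1 library left out. The cause was not tested. The counts of 0 for FGF2 against PBS, FGF10 against PBS and FGF2 against FGF10 became 120, 102 and 91 in DESeq2, and 2 for FGF2 against FGF10 with no filter, and none of the 10 genes was called in these under any setting run. Replicates 3 and 4 alone were not run for the comparisons with FGF10, which has 1 library there.

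With the replicate number as a block, 12 genes were called for SAG against DMSO, *Gfap* with an adjusted p of 0.0354, and 0 in each other comparison. Correlations of same-numbered deviations ran from -0.011 to 0.001 for SAG and DMSO and from 0.052 to 0.156 in the FGF comparisons, where the sets of replicates stood apart. In no comparison was every pair over 0.1, and not every library correlated best with its own number, so the numbers were not taken to pair the samples.

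Of 588 fold-changes of the 10 genes under alternatives, 578 moved by less than the spread between replicates and 10 by more, all 10 in *Cntfr*, *Osmr*, *Synm*, *Lifr* or *Il6st*, and 65 had another sign, none of them called. The values of *Synm* and *Osmr* are uncertain. At 5 to 10 CPM between 7.58% and 33.8% of genes were at 0 in a library, and the median of *Osmr*, 3.16 CPM, lay below that band. *Synm* had 159 counts in FGF2 replicate 2, the smallest library (17481727 counts), and 0 in FGF2 replicate 4 (42248040 counts). Whether depth sets those zeros was not tested.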

Other observations

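SAG against DMSO and replicates 3 and 4 against replicates 1 and 2 of the FGF experiment share no library, so their differences in mean log2(CPM + 1) can be set side by side. *Gfap* was lower in both, with differences of -2.15 for SAG and -2.96 for replicates 3 and 4. *Nes* had -0.16 and 1.29, *Il6st* 0.18 and -1.29, *Stat3* 0.31 and 0.55 and *Socs3* 0.95 and 0.62, and 4 of the 10 genes had the same sign in both, against 56% of 12158 genes. Over those genes, which are not independent replicates, Pearson's r was 0.20 and Spearman's rho 0.17, given as a description.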
